A study of Homo sapiens with 27 samples.

Results

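The aldehyde dehydrogenase (ALDH) family was examined in poly(A)-ClickSeq (PAC-seq) libraries from prostate cancer cells depleted of CPSF1. The set held 10 of the 20268 genes counted in any region, and 19 ALDH genes were listed in all. ALDH3A2 and ALDH8A1 were selected on their read counts in the region downstream of the gene, because reads ending there rose on CPSF1 knockdown, and the other 8 members, ALDH1A3, ALDH1B1, ALDH2, ALDH4A1, ALDH6A1, ALDH7A1, ALDH9A1 and ALDH18A1, are relatives set beside them. The knockdown change in the downstream region is therefore given as a description with no test for any member, and for ALDH3A2 and ALDH8A1 no knockdown change was tested in any region. The study asked where transcripts end when CPSF1, a subunit of the CPSF complex that recognises poly(A) signals, is reduced. There were 27 libraries in 9 groups of 3 biological replicates. LNCaP is an androgen-responsive prostate cancer line, LNCaP95 is an androgen-independent derivative of it kept in phenol red-free medium, and 22Rv1 is a castration-resistant line. Each was infected with lentivirus carrying a non-targeting control hairpin (CTRL sh) or 1 of 2 hairpins against CPSF1 (CPSF1 sh1, CPSF1 sh2), was selected with puromycin and was grown for 72 h before RNA was taken. Every group, controls included, thus carried a virus and a selected hairpin, and each line is a single established culture.

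ALDH enzymes use NAD+ or NADP+ to turn reactive aldehydes into carboxylic acids, and the members differ mainly in which aldehyde they take. ALDH3A2 oxidises long-chain fatty aldehydes at the endoplasmic reticulum, ALDH2 and ALDH1B1 clear acetaldehyde in mitochondria, ALDH1A3 makes retinoic acid from retinaldehyde, and ALDH9A1 acts in carnitine synthesis. ALDH4A1, ALDH6A1, ALDH7A1 and ALDH8A1 act in the breakdown of proline, valine, lysine and tryptophan, while ALDH18A1 works in the opposite direction and makes the precursor of proline. A human mRNA usually ends a short way after a hexamer, AAUAAA or a close variant, that is bound by the complex holding CPSF1, and RNA polymerase runs past that point before the transcript is cut.

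To show which signal stands at the annotated end of each gene, the last 50 bases before it were searched on the transcribed strand of GRCh37 for AATAAA and, where that was missing, for ATTAAA. ALDH8A1 and 6 others held AATAAA, ALDH2 held ATTAAA, and ALDH3A2 and ALDH6A1 held neither. Among 20231 gene ends searched in the same way, 56.5% held AATAAA, 12.8% held only ATTAAA and 30.7% held neither, so the absence at ALDH3A2 and ALDH6A1 is shared with many genes. The windows of ALDH8A1 and of 3 relatives that the results below turn on are shown with the hexamer in capitals, and the last 30 bases of ALDH3A2 and ALDH6A1 are shown because no capitals can be set in them. They lie at chr6:135238541-135238570 (minus strand), chr10:97365700-97365729 (minus), chr12:112247751-112247780 (plus), chr1:19197927-19197956 (minus), chr17:19580881-19580910 (plus) and chr14:74523554-74523583 (minus), in the order printed, all in the 3′ UTR.
ALDH8A1: cccaaaagaagcAATAAAtgttaagcaatt
ALDH18A1: ccttttttgagaAATAAAgttttttatgaa
ALDH2: gggctaagattcATTAAAaactagctgctc
ALDH4A1: cagatgccacccAATAAAatgcctgttact
ALDH3A2: actataaatcattttatgtctttatcatag
ALDH6A1: ataatgaatgaggcagtgtctcctcatgcc

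Between the hexamer and the annotated end lay 24 bases in ALDH8A1, 15 in ALDH18A1, 13 in ALDH2 and 12 in ALDH4A1. The 10 kb region counted as downstream starts 300 bases beyond that end. In ALDH3A2 it runs from chr17:19581211-19591210 and holds 25 copies of AATAAA on the transcribed strand and 5 on the other. Of 15641 unbroken regions of this kind 97.5% held at least 1 copy, the median was 9, and 97.7% held fewer than ALDH3A2, whose A and T content of 54.5% lay below the median of 56.0%. ALDH6A1 held 19 copies and ALDH8A1, at chr6:135228229-135238228, held 10. A copy of the letters is a match, not a site in use. A newer annotation (Gencode v44) ends 3 of its 42 ALDH3A2 transcripts inside this region, the farthest 7863 bases into it, and ends 2 of 5 ALDH2 transcripts and 2 of 37 ALDH7A1 transcripts in or beyond theirs. It ends no ALDH8A1 transcript there. The region of ALDH1A3 is cut into 4 pieces by exons of LRRK1 on the same strand. That of ALDH4A1 lies within RP13-279N23.2, a gene annotated as protein-coding on the same strand.

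The tables count reads by where their 3′ end fell: in a 3′ UTR, in the 10 kb downstream of it, in an intron or in the coding sequence (CDS). Over the 4 tables the libraries held between 3452413 and 12425417 reads, of which 170330 to 728430 fell in the 10 kb table. CPSF1 itself, read in the 3′ UTR table, was left at 43.9% of control in LNCaP, 48.2% in LNCaP95 and 60.3% in 22Rv1 (adjusted p = 8.3e-05, 0.00030 and 0.016, edgeR quasi-likelihood test with Benjamini-Hochberg adjustment). All 7 prostate epithelial markers were detected in each line, their summed level ranging over 3403 to 5718 (LNCaP), 4096 to 8216 (LNCaP95) and 1765 to 2527 (22Rv1) CPM, the unit of reads scaled to a common library size. Of 5 markers of other cell types 4 were listed: PTPRC and CD3E never passed 2 reads, DCN reached 13 reads in 1 22Rv1 library, and COL1A1 held 8 to 199 reads. All CPM below are relative to the reads of the table named, scaled by TMM, and folds are edgeR log2 fold changes ± SE of the 6 CPSF1 sh libraries against the 3 CTRL sh libraries of the line.

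The downstream reads of ALDH3A2 differed most plainly between groups in 22Rv1. In that line the 10 kb region held 119, 167 and 256 reads in CTRL sh, 993, 656 and 1261 in CPSF1 sh1 and 1629, 1242 and 1239 in CPSF1 sh2. The control libraries lay between 622 and 703 CPM and the knockdown libraries between 1557 and 1912 CPM, with no overlap. The same contrast gave a log2 fold change of 1.31 ± 0.18. In LNCaP95 there were 73, 50 and 66 control reads against 116, 330 and 153 with sh1 and 184, 224 and 178 with sh2. All 6 knockdown libraries were above every control on the CPM scale, at 238 to 637 against 188 to 224 CPM, and the spread among them came from the 1 library at 637. The log2 fold change was 0.78 ± 0.27. In LNCaP the groups overlapped: 57, 87 and 72 control reads stood against 71, 72 and 128 with sh1 and 122, 57 and 172 with sh2, and only 2 of 6 knockdown libraries lay above the highest control, giving 0.09 ± 0.22. Dividing by reads summed over all 4 tables, in place of the 10 kb table alone, gave 0.60, 1.72 and 1.84 for LNCaP, LNCaP95 and 22Rv1. On that scale the median of the genes tested in the 10 kb table was 0.61, 1.30 and 0.61. On the per-table scale it was 0.13, 0.22 and 0.19. These medians cover different genes, because fewer passed 2 CPM on the summed scale. The summed scale took in 3265, 4511 and 4123 genes and the per-table scale 13441, 14789 and 14372. ALDH3A2 in LNCaP lay close to the median on both scales, within its SE of 0.22 on the per-table scale.

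The 3′ UTR level of ALDH3A2 differed the other way in 22Rv1. Its 3 control libraries held 563, 528 and 542 CPM, the sh1 libraries 363, 342 and 338 CPM and the sh2 libraries 273, 252 and 283 CPM, so every knockdown library was below every control and the sh2 libraries were below the sh1 libraries. The log2 fold change was −0.83 ± 0.13. In LNCaP95 the level went from 74 to 88 CPM in controls to 55 to 77 CPM, with 5 of 6 knockdown libraries under the lowest control and a log2 fold change of −0.31 ± 0.14. In LNCaP it was 61.8 to 79.0 CPM in controls and 62.4 to 75.2 CPM after knockdown, a difference of 0.03 ± 0.13. Intron reads of ALDH3A2 in 22Rv1 also lay below all controls in 6 of 6 libraries after scaling (−0.49 ± 0.15).

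ALDH8A1 was close to silent in control cells and was read mainly downstream of its end after knockdown. In LNCaP the 3 control libraries held 0 reads in the 10 kb region, against 29, 20 and 36 reads with sh1 and 40, 16 and 32 with sh2. Set against a floor of 3 reads over the control group, the pooled knockdown share of the 10 kb table was at least 25.7-fold higher. In LNCaP95 the controls held 1, 2 and 0 reads and the knockdown libraries 31, 73 and 54 with sh1 and 69, 58 and 36 with sh2, a pooled ratio of 37.4 with an exact 95% counting interval of 12.7 to 182. In 22Rv1 there were 1, 0 and 0 control reads against 45, 21 and 96 with sh1 and 105, 87 and 71 with sh2, a ratio of 99.98 with an interval of 17.8 to 3958. These intervals cover counting error only. No control library overlapped a knockdown library in any line.

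The annotated 3′ UTR of ALDH8A1 held far fewer reads. It held 0 reads in all LNCaP and LNCaP95 controls and 0, 1 and 2 in the 22Rv1 controls. After knockdown the LNCaP libraries held at most 5 reads, the LNCaP95 libraries 6 to 17 and the 22Rv1 libraries 10 to 33, where the pooled ratio was 12.5 with an interval of 4.18 to 61.6. Of the pooled knockdown reads in the 3′ UTR and 10 kb regions together, 93.5% lay in the 10 kb region in LNCaP, 83.8% in LNCaP95 and 78.6% in 22Rv1. Introns of ALDH8A1 held 0 to 14 reads in controls, and after knockdown LNCaP held 2 to 22, LNCaP95 11 to 25 and 22Rv1 29 to 46, with log2 fold changes of 0.68 ± 0.59, 1.12 ± 0.41 and 0.90 ± 0.36.

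The nearest protein-coding gene upstream of ALDH8A1 on its strand is HBS1L, a ribosome rescue factor, which ends 10263 bases before it, so that the 10 kb region of HBS1L, chr6:135271260-135281216, reaches almost to the ALDH8A1 start. HBS1L was looked at after the values of ALDH8A1 were seen. Its 10 kb region held 3 to 14 reads in LNCaP controls and 11 to 48 after knockdown, 1 to 13 and 36 to 58 in LNCaP95, and 13 to 16 and 48 to 108 in 22Rv1. It rose by 1.15 ± 0.40 (adjusted p = 0.034, edgeR), 1.61 ± 0.42 (adjusted p = 0.0019) and 1.04 ± 0.30 (adjusted p = 0.011) on the log2 scale. Beside these calls, 14.7%, 27.7% and 9.99% of all genes tested in the 10 kb table were called. The 3′ UTR of HBS1L was also higher, by 0.46 ± 0.17, 0.37 ± 0.18 and 0.73 ± 0.16. Only the 22Rv1 value was called (adjusted p = 0.033, edgeR), beside 1.47% of all genes. The part of reads running on from HBS1L in the ALDH8A1 result was not tested.

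ALDH18A1, from the other 8 members, had a higher 10 kb CPM in every knockdown library than in any control in LNCaP and LNCaP95. How many of all genes parted in this way was not counted. For scale, 14.7%, 27.7% and 9.99% of all genes tested in the 10 kb table were called in either direction (adjusted p under 0.05, edgeR). These shares are for LNCaP, LNCaP95 and 22Rv1, and a call is a different measure from groups that do not overlap. Since the members were picked with this contrast in view, nothing is read from the separation. Its controls held 1, 0 and 2 reads in LNCaP and 3, 1 and 2 in LNCaP95. With knockdown there were 7, 8, 5, 10, 3 and 19 reads in LNCaP and 17, 26, 14, 32, 28 and 28 in LNCaP95. The LNCaP ratio was 7.73 with a counting interval of 2.50 to 38.7, and the LNCaP95 log2 fold change was 2.69 ± 0.60. In 22Rv1 the ranges overlapped, at 0 to 4 control reads and 2 to 19 knockdown reads (0.78 ± 0.82).

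**Figure D1:**
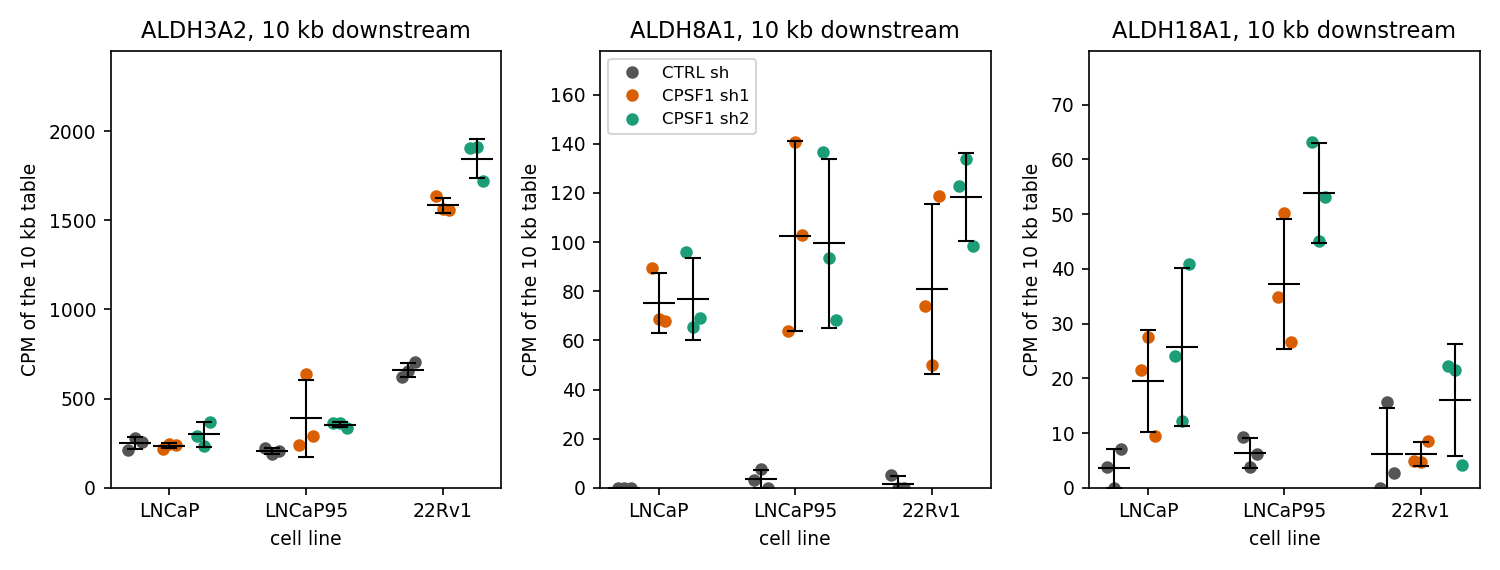
CPM of the 10 kb table (y axis) in each library of ALDH3A2, ALDH8A1 and ALDH18A1 by cell line (x axis), coloured by hairpin; horizontal ticks and bars give the mean and SD of 3 libraries. ALDH3A2 stands at 1557 to 1912 CPM in 22Rv1 knockdown libraries against 622 to 703 CPM in controls, and ALDH8A1 is at 0 to 7.5 CPM in every control library.

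The other 7 members held few reads downstream or did not move apart. ALDH6A1 had 12 to 40 control reads across the lines and 8 to 108 knockdown reads, with log2 fold changes of −0.36 ± 0.35 (LNCaP), −0.40 ± 0.41 (LNCaP95) and 0.17 ± 0.26 (22Rv1). With reads summed over the 4 tables these became 0.14, 0.51 and 0.72. In LNCaP and LNCaP95 ALDH6A1 lay below the median of the genes tested on each scale, which are different sets of genes. ALDH2 had 1 to 13 control and 4 to 19 knockdown reads, with overlap in each line. ALDH1B1, ALDH7A1 and ALDH9A1 held at most 5 control reads and at most 14 knockdown reads in a library, and ALDH4A1 at most 8 and 16. Pooled LNCaP95 reads gave a ratio of 8.39 for ALDH1B1 (1 against 24 reads, counting interval 1.37 to 345). They gave 7.34 for ALDH9A1 (1 against 21, 1.18 to 303) and 3.49 for ALDH7A1 (1 against 10, 0.50 to 152). In LNCaP ALDH1B1 held 0 against 15 reads, and the ALDH9A1 ratio was 3.34 (0.78 to 30.1). In 22Rv1 the ALDH1B1 ratio was 1.41 (0.17 to 64.9), and the ALDH9A1 log2 fold change was −0.11 ± 0.75. ALDH1A3 never passed 5.

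The place where the transcripts ended was also read as a share, the 10 kb reads as a percentage of 10 kb plus 3′ UTR reads of the same gene and library, which does not depend on scaling between libraries. For ALDH3A2 it was 9.9% ± 1.8 (SD, n = 3) in 22Rv1 controls and 42.4% ± 5.8 (n = 6) after knockdown, 13.3% ± 2.5 and 39.4% ± 11.0 in LNCaP95, and 21.1% ± 3.0 and 27.9% ± 6.1 in LNCaP. The groups did not overlap in 22Rv1 or LNCaP95 and did in LNCaP, where the control share was already the highest of the lines. How many of all genes parted in share was not counted. The members were picked with downstream reads in view, so nothing is read from this separation. With control and knockdown libraries each pooled, the median share over genes with at least 100 reads went from 3.45% to 6.12% in LNCaP. This median went from 2.94% to 8.86% in LNCaP95 and from 4.06% to 8.68% in 22Rv1. The share was higher after knockdown in 71.2%, 80.1% and 80.3% of these genes. ALDH3A2 in control cells thus already stood above the median gene in each line.

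ALDH2 had fewer reads. Its downstream share averaged 10.4% ± 3.8 in LNCaP controls and 30.0% ± 11.5 after knockdown, with each knockdown library above every control. In LNCaP95 the values were 13.7% ± 3.8 and 30.9% ± 19.7 and in 22Rv1 26.4% ± 22.9 and 54.2% ± 6.1, with overlap in both, and its 3′ UTR held as few as 6 reads in a library. ALDH6A1 averaged 12.8% ± 3.6 in 22Rv1 controls and 20.9% ± 3.1 after knockdown, where the groups did not overlap, 5.5% ± 1.8 and 13.7% ± 6.4 in LNCaP95, and 6.5% ± 2.7 and 8.2% ± 2.8 in LNCaP. ALDH18A1 went from 0.50% to 5.15% of pooled reads in LNCaP95, from 0.37% to 2.77% in LNCaP and from 0.70% to 1.93% in 22Rv1. Its libraries did not overlap in LNCaP95 or LNCaP and did in 22Rv1. ALDH1B1 and ALDH9A1 stayed under 1.1% in pooled reads of every group, so nearly all of their reads ended in the annotated 3′ UTR. Within that range the ALDH9A1 libraries did not overlap in LNCaP95 (0% to 0.20% in controls and 0.33% to 0.97% after knockdown). ALDH4A1 did not overlap between groups in LNCaP95 (2.2% to 6.2% in controls and 6.5% to 13.4% after knockdown), and in LNCaP it had a smaller pooled share after knockdown, 0.64% against 2.19% in controls. As for ALDH3A2, nothing is read from groups that part in share, since the count over all genes was not made.

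**Figure D2:**
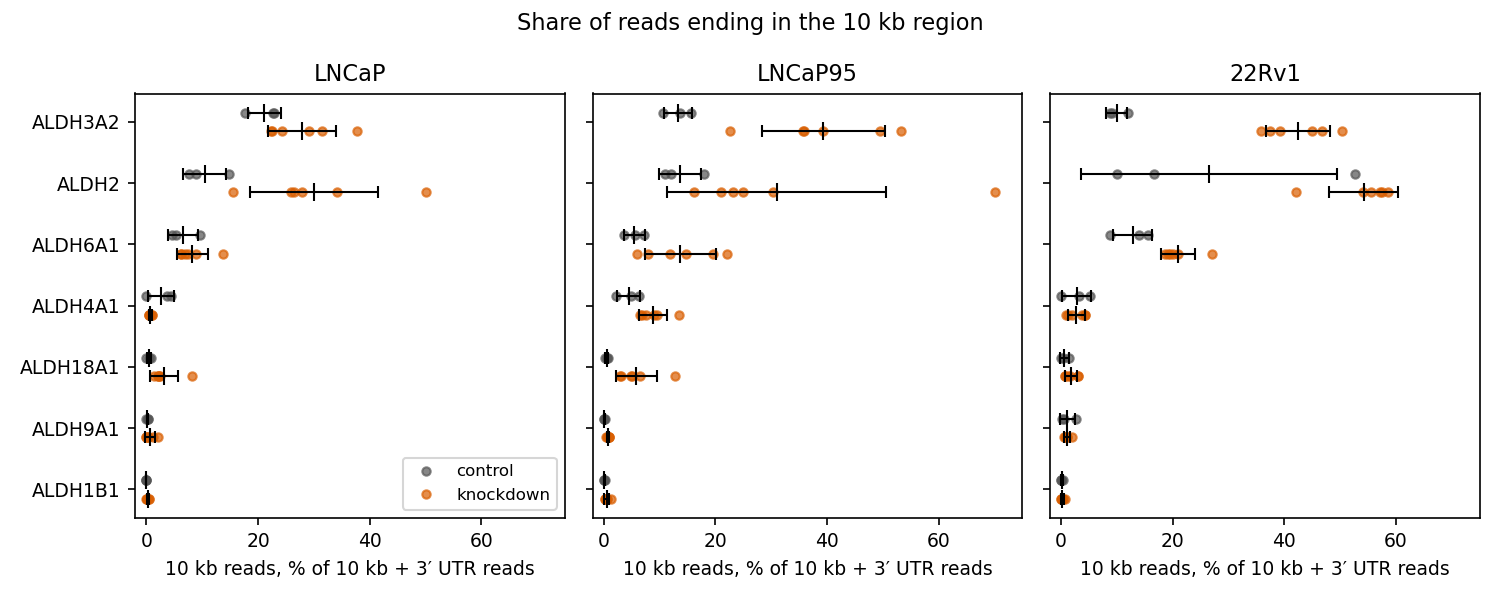
Reads in the 10 kb region as a percentage of 10 kb plus 3′ UTR reads (x axis) for 7 members (y axis) in 3 cell lines, with 1 point per library and the mean and SD as black bars (3 control and 6 knockdown libraries). ALDH3A2 averages 42.4% after knockdown against 9.9% in controls in 22Rv1, while ALDH1B1 and ALDH9A1 lie near 0.

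To determine whether the level of the other 8 members changed, their 3′ UTR reads were compared between knockdown and control. In LNCaP 7 of the 8 were tested, 1 rose and 1 fell, while 18.3% of all genes tested were called. ALDH4A1 rose from 26.2, 35.5 and 27.3 CPM to 78.4, 61.8 and 101 CPM with sh1 and 61.1, 111 and 74.1 CPM with sh2, with no overlap (log2 fold change 1.45 ± 0.20, adjusted p = 7.8e-05, edgeR). ALDH2 fell from 15.2 to 16.4 CPM in controls to 5.62 to 14.0 CPM, by 0.74 ± 0.25 on the log2 scale (adjusted p = 0.046). Leaving out 1 library at a time ended this call in 7 of 9 cases, all but CPSF1 sh2 replicate 2 and CPSF1 sh1 replicate 3, with log2 fold changes of −0.92 to −0.63 and adjusted p from 0.014 to 0.14. The other 5 members tested lay between −0.21 and 0.24.

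In LNCaP95 7 were tested, 1 rose and 1 fell, against 30.5% of all genes. ALDH1B1 rose from 111, 96.8 and 113 CPM to 132, 162 and 176 CPM with sh1 and 166, 186 and 148 CPM with sh2 (0.60 ± 0.14, adjusted p = 0.0031, edgeR). ALDH6A1 fell from 60.5, 56.1 and 47.6 CPM to 35.5, 28.8 and 31.0 CPM and 27.5, 31.1 and 24.1 CPM, by 0.88 ± 0.15 on the log2 scale (adjusted p = 0.00024). In each of these 2 genes the groups did not overlap. ALDH2 was at 6.09 to 10.1 CPM in controls and 2.04 to 7.14 CPM after knockdown (−0.86 ± 0.33, adjusted p = 0.053), and the call was not made. In 22Rv1 0 of 7 members tested were called by edgeR, 0 had an unadjusted p under 0.05, and 1.47% of all genes were called. The smallest adjusted p was 0.60, for ALDH2 at −0.50 ± 0.37. ALDH9A1 and ALDH18A1 were tested in each line and not called in any, with log2 fold changes of −0.00 to 0.11 and 0.16 to 0.29.

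**Figure D3:**
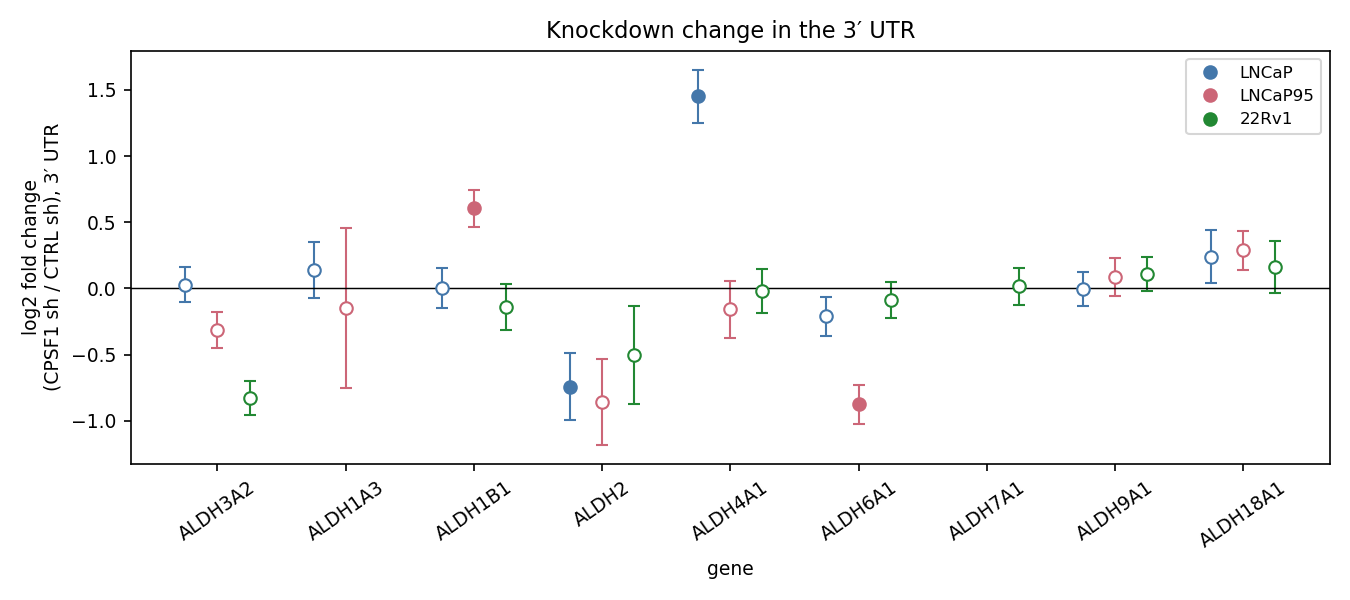
Log2 fold change of CPSF1 sh over CTRL sh in the 3′ UTR table (y axis) by gene (x axis) and cell line (colour), with bars of 1 SE; filled points passed an adjusted p of 0.05 and ALDH3A2 was not tested. ALDH4A1 stands at 1.45 in LNCaP and near 0 in the other lines, and ALDH6A1 at −0.88 in LNCaP95.

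The lines were then compared directly through line-by-knockdown terms over all 27 libraries. The knockdown effect on ALDH4A1 was lower in LNCaP95 than in LNCaP by 1.60 ± 0.29 on the log2 scale (adjusted p = 0.00033, edgeR) and lower in 22Rv1 than in LNCaP (−1.45 ± 0.28, adjusted p = 0.0016). For ALDH6A1 it was lower in LNCaP95 than in LNCaP (−0.66 ± 0.19, adjusted p = 0.028) and higher in 22Rv1 than in LNCaP95 (0.80 ± 0.20, adjusted p = 0.0074). For ALDH1B1 it was lower in 22Rv1 than in LNCaP95 (−0.74 ± 0.23, adjusted p = 0.036). Thus 2 of 8 members differed between LNCaP95 and LNCaP, 1 of 8 between 22Rv1 and LNCaP and 2 of 8 between 22Rv1 and LNCaP95, beside 9.58%, 5.11% and 10.7% of all genes. For ALDH2 the 3 differences were −0.10 ± 0.40, 0.27 ± 0.47 and 0.37 ± 0.48, so its effect was not shown to differ between lines. The values of ALDH3A2, not tested, were −0.33 ± 0.18, −0.83 ± 0.18 and −0.50 ± 0.17.

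Among intron counts, 0 of 6 members tested in LNCaP were called by edgeR (1 with an unadjusted p under 0.05), with LNCaP95 giving 1 of 5 and 22Rv1 giving 0 of 6 (0 with an unadjusted p under 0.05), beside 14.3%, 23.8% and 4.37% of all genes. The gene called was ALDH6A1 in LNCaP95, from 62, 28 and 32 reads in controls to 10 to 17 reads in the knockdown libraries. It fell by 1.58 ± 0.32 on the log2 scale (adjusted p = 0.00049, edgeR), with no overlap. ALDH6A1 thus fell in both the 3′ UTR and introns in this line, while its CDS reads gave 0.55 ± 0.49 (adjusted p = 0.54). Among CDS counts, 0 of 2, 0 of 1 and 0 of 2 members tested were called in LNCaP, LNCaP95 and 22Rv1, each with 0 unadjusted p under 0.05, beside 7.10%, 12.5% and 1.01% of all genes. Introns held 34.8% of ALDH2 reads on average in LNCaP controls and 24.4% of ALDH18A1 reads, against at most 0.29% of ALDH1B1 reads and none of ALDH4A1 reads in any library. ALDH4A1 had no CDS reads in any library either, and RP13-279N23.2 spans it on the same strand. Whether that overlap kept reads from being assigned to ALDH4A1 was not tested.

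The hairpins were set against each other, a contrast the choice of members did not use. For the 3′ UTR, the numbers of members that differed between CPSF1 sh2 and CPSF1 sh1 were 0 of 8 (LNCaP), 0 of 8 (LNCaP95) and 0 of 9 (22Rv1), beside 0.0363%, 0% and 0.0522% of all genes (edgeR). Unadjusted p-values under 0.05 numbered 0, 1 and 3. For the 10 kb region the counts were 0 of 8, 0 of 9 and 0 of 9, with 0 unadjusted p under 0.05 in each, beside 0.119%, 0.00676% and 0.174% of all genes. ALDH3A2 in the 10 kb table differed by 0.32 ± 0.24, −0.14 ± 0.28 and 0.15 ± 0.17 in LNCaP, LNCaP95 and 22Rv1, and ALDH8A1 by 0.01 ± 0.40, −0.06 ± 0.37 and 0.43 ± 0.28. In the 3′ UTR of 22Rv1, ALDH3A2 was lower with sh2 than with sh1 by −0.37 ± 0.11, which did not pass (adjusted p = 0.29, edgeR).

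Several members differed between the lines before knockdown, as did a large part of all genes. Among control libraries, 5 of 9 members tested were called in each of the 3 pairs of lines, beside 39.3% of all genes for LNCaP95 against LNCaP, 47.2% for 22Rv1 against LNCaP and 54.6% for 22Rv1 against LNCaP95. ALDH3A2 averaged 544 ± 17.5 CPM (SD, n = 3) in 22Rv1, 82.6 ± 7.8 in LNCaP95 and 68.6 ± 9.2 in LNCaP. It was higher in 22Rv1 than in LNCaP by 3.00 ± 0.16 on the log2 scale (adjusted p = 1.7e-10, edgeR) and than in LNCaP95 by 2.73 ± 0.15 (adjusted p = 2.7e-10), while the latter pair was not told apart (0.27 ± 0.15, adjusted p = 0.17). The downstream log2 fold change of ALDH3A2 given above was 1.31 in 22Rv1, 0.78 in LNCaP95 and 0.09 in LNCaP. With library sizes summed over the 4 tables it was 1.84, 1.72 and 0.60. A link between the ALDH3A2 level of a line and its downstream change was not tested.

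ALDH7A1 was read almost only in 22Rv1. It held 112, 182 and 302 reads there, 5, 2 and 0 in LNCaP and 0, 0 and 8 in LNCaP95, so the LNCaP95 value came from 1 library. Its pooled share of 3′ UTR reads was 116 times higher in 22Rv1 than in LNCaP (exact 95% counting interval 55.7 to 289) and 111 times higher than in LNCaP95 (55.9 to 258). Without that LNCaP95 library the group is at 0 and the share is at least 199-fold higher, against a floor of 3 reads over the group. Both differences were called (adjusted p = 7.5e-08 and 2.8e-08, edgeR). ALDH1A3 followed the reverse order, with 60, 75 and 57 reads in LNCaP. LNCaP95 held 3, 6 and 20 reads and 22Rv1 held 0, 1 and 0. It fell by 3.05 ± 0.50 from LNCaP to LNCaP95 (adjusted p = 0.00014, edgeR). Pooled over controls, its share of 3′ UTR reads was 142 times that of 22Rv1 in LNCaP, with an exact 95% counting interval of 25.1 to 5619, and 19.5 times in LNCaP95 (3.23 to 796). Both differences of ALDH1A3 from 22Rv1 were called (adjusted p = 4.5e-06 and 0.0075, edgeR), the one from LNCaP95 not without 22Rv1 CTRL sh replicate 3 (adjusted p = 0.057).

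ALDH2 declined in the same order as ALDH1A3, at 15.7 ± 0.6 CPM (LNCaP), 8.5 ± 2.1 CPM (LNCaP95) and 3.9 ± 1.7 CPM (22Rv1), with each step called (adjusted p = 0.026 from LNCaP to LNCaP95 and 0.0087 from LNCaP95 to 22Rv1, edgeR). ALDH1B1 was at 228 ± 11.3 CPM in LNCaP and lower in LNCaP95 (−1.10 ± 0.19, adjusted p = 0.00023) and 22Rv1 (−1.30 ± 0.20, adjusted p = 3.8e-05), whose difference from each other was not called. ALDH4A1 was lowest in LNCaP95, at 18.9 ± 3.3 CPM against 29.7 ± 5.1 in LNCaP and 44.3 ± 12.7 in 22Rv1, and the 2 differences that involve LNCaP95 were called (adjusted p = 0.031 and 0.00030). ALDH6A1 was lower in LNCaP95 than in LNCaP (−0.49 ± 0.17, adjusted p = 0.034). The LNCaP95 against LNCaP calls of ALDH2, ALDH4A1 and ALDH6A1 were each kept in 5 of 9 fits that left out a control library. ALDH2 lost it without LNCaP replicate 1, 2 or 3 or LNCaP95 replicate 2 (−0.91 to −0.70), ALDH4A1 without LNCaP replicate 2 or 3 or LNCaP95 replicate 2 or 3 (−0.72 to −0.51), and ALDH6A1 without LNCaP replicate 1 or 2 or LNCaP95 replicate 2 or 3 (−0.51 to −0.35). With library sizes summed over the 4 tables the 3 genes were at −0.58, −0.34 and −0.16, none called (adjusted p = 0.14, 0.26 and 0.57, edgeR). ALDH9A1, at 102 to 121 CPM, and ALDH18A1, at 67.6 to 79.1 CPM, were not called in any pair.

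**Figure D4:**
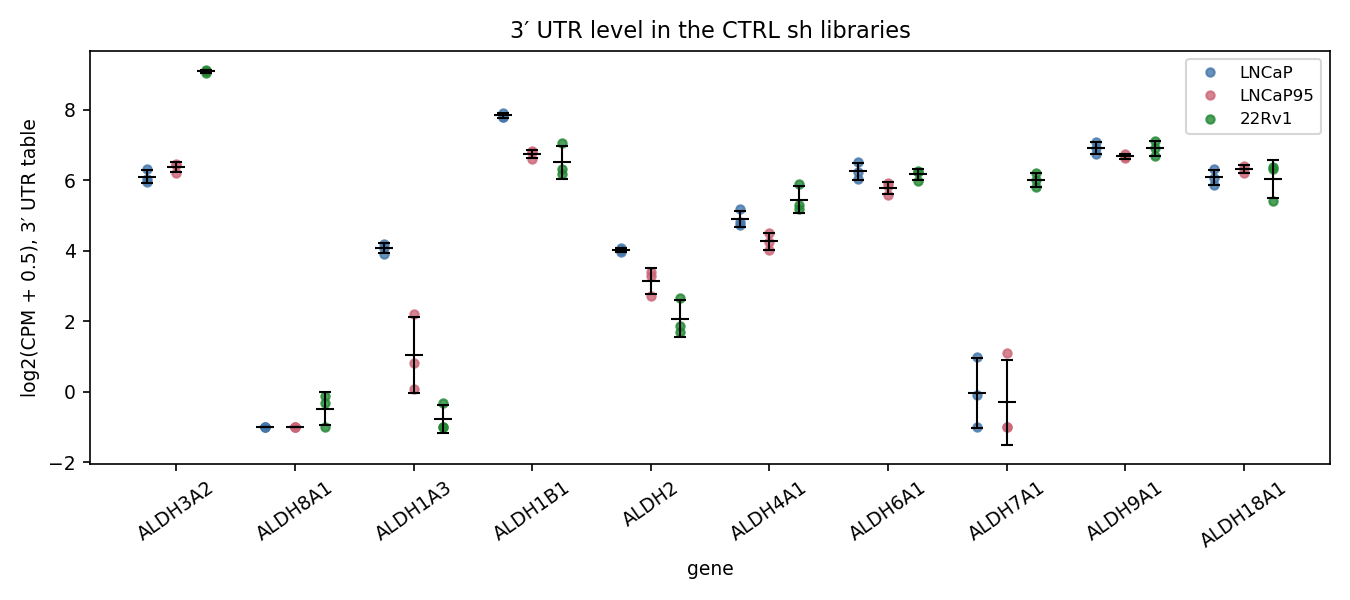
Level of each member in the CTRL sh libraries as log2(CPM + 0.5) of the 3′ UTR table (y axis) by gene (x axis) and cell line (colour), with 1 point per library and the mean and SD of 3 libraries as black bars. ALDH3A2 and ALDH7A1 are highest in 22Rv1, and ALDH1A3 and ALDH2 step down from LNCaP through LNCaP95 to 22Rv1.

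Of the other 9 ALDH genes in the tables, the 3′ UTR tests took in 3 (LNCaP), 3 (LNCaP95) and 4 (22Rv1), and 1, 1 and 0 were called beside 18.3%, 30.5% and 1.47% of all genes. ALDH3B2 fell in LNCaP (−0.79 ± 0.27, adjusted p = 0.049, edgeR) and rose in LNCaP95 (0.95 ± 0.20, adjusted p = 0.0017). ALDH5A1, which oxidises succinic semialdehyde, ALDH16A1, ALDH1A1, a second maker of retinoic acid, and ALDH1L2, a mitochondrial folate enzyme, were not called where tested, with values from −0.66 to 0.50. The median of the list was −0.15, 0.50 and −0.14 in LNCaP, LNCaP95 and 22Rv1, beside 0.02, 0.01 and −0.01 over all genes. For the 10 kb region, 0 of 5, 1 of 6 and 0 of 7 of them were called in these lines, the 1 being lower, beside 14.7%, 27.7% and 9.99% of all genes. Among intron counts 1 of 7 was higher in LNCaP and 1 of 7 lower in 22Rv1, while LNCaP95 had 1 higher and 1 lower of 6, beside 14.3%, 4.37% and 23.8% of all genes in the order given.

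Of 15 aldehyde and ketone reductases and alcohol dehydrogenases, which act on the same aldehydes in the reducing direction, 1 of 6 tested in the 3′ UTR fell in LNCaP, 2 of 6 fell in LNCaP95 and 0 of 7 were called in 22Rv1, beside 18.3%, 30.5% and 1.47% of all genes. AKR7A2, an aldehyde reductase, was the gene that fell in both lines (−0.61 ± 0.16, adjusted p = 0.011, and −0.77 ± 0.17, adjusted p = 0.0019, edgeR). The list's medians were −0.17, −0.38 and −0.13. Its 10 kb calls were 1 lower of 10 (LNCaP), 3 higher and 1 lower of 13 (LNCaP95), and 1 in each direction of 11 (22Rv1), beside 14.7%, 27.7% and 9.99%. Of 23 enzymes that stand next to the members in proline, valine, lysine, carnitine, fatty aldehyde, tryptophan and retinoid metabolism, 1 of 14 fell in LNCaP, 2 of 15 rose and 3 fell in LNCaP95, and 0 of 14 were called in 22Rv1, beside the same shares of all genes in the 3′ UTR table as for the reductases. DHRS3, which turns retinaldehyde back to retinol and so draws on the substrate of ALDH1A3, fell in both LNCaP and LNCaP95 (−1.61 ± 0.22 and −1.66 ± 0.17, adjusted p = 7.2e-05 and 1.9e-06, edgeR). The medians were 0.24, 0.17 and −0.11, and the 10 kb calls were 1 higher and 1 lower of 14, 2 and 3 of 17, and 0 and 2 of 16, again beside 14.7%, 27.7% and 9.99%.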

How the data were processed

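PAC-seq reads the 3′ end of polyadenylated RNA. Per the labels and the study's methods, the authors aligned reads to GRCh37 with HISAT2 2.1.0, removed poly(A) tails from reads with DPAC, and counted reads by strand and 3′-most base with featureCounts (Subread 2.0.3) into 3′ UTR regions extended by 300 bases, the 10 kb beyond less same-strand exons, introns and CDS. The deposited values are raw counts per gene in 4 tables of 27 libraries. Reads primed inside an A-rich stretch cannot be told from true ends here.

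The members and gene lists were chosen with earlier results of these data known. Named were the 10 members, CPSF1, other ALDH genes tested in a 3′ UTR, at most 4 genes per other list called in at least 2 lines, and genes annotated within a member's 10 kb region. Counts were fitted per table in edgeR 4.0.16 (R 4.3.3; glmQLFit, glmQLFTest) with TMM factors, for genes with a mean above 2 CPM in the libraries fitted, and called at a Benjamini-Hochberg adjusted p under 0.05 over all genes tested. Knockdown and hairpin contrasts used the 9 libraries of a line, control contrasts the 9 CTRL sh libraries, and line-by-knockdown terms all 27. Printed CPM used TMM over all 27. DESeq2 1.42.0 was an alternative, as were other scalings, filters, each hairpin alone, a replicate block and leaving out each library. The fits were tested on simulated data. No library pair within a group agreed within sampling noise (lowest chi-square per degree of freedom 2.80). P-values of the knockdown and hairpin contrasts measure the spread between libraries of 1 line each. Those of the control contrasts and line-by-knockdown terms use a spread shared by all lines, each a single culture.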

Additional observations from a re-analysis of the deposited data

Results flagged for a closer look

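Differences in the knockdown effect between cell lines passed the test of the difference itself (line-by-knockdown term, edgeR, 3′ UTR table) in 5 cases. ALDH4A1 differed by −1.60 between LNCaP95 and LNCaP (adjusted p = 0.00033) and by −1.45 between 22Rv1 and LNCaP (adjusted p = 0.0016). ALDH6A1 differed by −0.66 between LNCaP95 and LNCaP (adjusted p = 0.028) and by 0.80 between 22Rv1 and LNCaP95 (adjusted p = 0.0074). ALDH1B1 differed by −0.74 between 22Rv1 and LNCaP95 (adjusted p = 0.036). Values are on the log2 scale. The ALDH4A1 calls were kept in each of the 27 fits that left out 1 library. The ALDH6A1 call between LNCaP95 and LNCaP was kept in 24 of 27 (lost without LNCaP CTRL sh replicate 1 or 3 or LNCaP95 CTRL sh replicate 1, at −0.63 to −0.55), that between 22Rv1 and LNCaP95 in 27 of 27, and the ALDH1B1 call in 21 of 27 (lost without LNCaP95 CTRL sh replicate 1, 2 or 3, LNCaP95 CPSF1 sh2 replicate 2, 22Rv1 CTRL sh replicate 1 or 22Rv1 CPSF1 sh1 replicate 3, at −0.77 to −0.45). With summed library sizes both ALDH6A1 calls were lost (−0.77, adjusted p = 0.063, and 0.73, adjusted p = 0.078, edgeR). The cause of these differences was not tested.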

How the results depend on the processing

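No called value changed sign under any alternative run. With library sizes summed over the 4 tables, the members called went from 2 to 1 for the LNCaP 3′ UTR, from 0 to 2 for LNCaP introns, from 5 to 3 for control LNCaP95 against LNCaP, and from 2 to 1 for the line-by-knockdown terms of LNCaP95 against LNCaP and of 22Rv1 against LNCaP95. The 10 kb log2 fold change of ALDH3A2 became 0.60, 1.72 and 1.84 in LNCaP, LNCaP95 and 22Rv1 on that scale and 1.49 with CPSF1 sh2 alone in 22Rv1, and that of ALDH8A1 in LNCaP 6.81 with DESeq2. Asking for over 2 CPM in every library, which drops genes silent in a line, left 3 of 5 calls in control 22Rv1 against LNCaP and against LNCaP95. CPSF1 sh1 alone and CPSF1 sh2 alone, with fewer libraries, each left 1 call in the LNCaP 3′ UTR. The replicate block left 1 call there too, ALDH2 being lost. Replicate numbers were not used to pair the samples in the main fits. Correlations of deviations ran from −0.39 to 0.58 between same-numbered libraries and from −0.59 to 0.56 between other-numbered ones. Leaving out 1 library gave 1 to 2 calls in the LNCaP 3′ UTR, 2 to 5 for control LNCaP95 against LNCaP, 1 to 2 for the terms of LNCaP95 against LNCaP and of 22Rv1 against LNCaP95, and 5.29 to 8.88 for ALDH8A1 in 22Rv1, the top value without CTRL sh replicate 1, the control with its single read. The cause was not tested otherwise. Depth limits the members with under 10 reads downstream.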
